A study of Mus musculus with 4 samples.

Results

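The 10 genes described here are listed genes of the mouse mitochondrial genome: mt-Nd1, mt-Nd2, mt-Nd4, mt-Nd5, mt-Cytb, mt-Co1, mt-Co2, mt-Co3, mt-Atp6 and mt-Rnr2. They were found by matching the Ensembl gene IDs of the deposited table to GENCODE symbols, and all 10 are among its 12390 genes. RNA was measured in bone marrow cells of mice sorted as hematopoietic stem cells, Lin-, Sca-1+, c-Kit+, CD48- and CD150+, with about 5000 cells per library. Control libraries (2, labelled WT and titled Ddx21_fl) came from mice with the floxed allele alone, and knockout libraries (2, labelled KO and titled Ddx21_CKO) from floxed mice that also carry CAG-CreERT2. The design text spells the allele Ddx211fl/fl. The floxed allele is shared by all 4 libraries. CAG-CreERT2 is a Cre recombinase under a broadly active promoter that needs tamoxifen to work, so the recombinase is not limited to stem cells, with age, sex, tamoxifen dosing and timing not given in the sources used here. Nothing in the labels ties a library to an animal of its own, so p-values rest on the spread between these libraries, which may be technical. In the main gene test this spread is a trend over all genes, with no weight for a gene's own replicates.

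The mitochondrial genome is a small circle that is copied into RNA as long transcripts, which are cut apart, mostly at the tRNAs that lie between the other genes. Its messenger RNAs encode core subunits of respiratory complexes I, III, IV and V, whose other subunits come from nuclear genes. Its rRNAs form the mitochondrial ribosome, which makes these proteins. Most mitochondrial mRNAs carry a short poly(A) tail, which in several of them completes the stop codon. Hematopoietic stem cells are known for relying less on respiration than their progeny do.

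Every one of the 10 genes lies on the plus strand of the annotated mitochondrial chromosome in mm10. In the order of the genome they are mt-Rnr2 (1094 to 2675), mt-Nd1 (2751 to 3707), mt-Nd2 (3914 to 4951), mt-Co1 (5328 to 6872), mt-Co2 (7013 to 7696), mt-Atp6 (7927 to 8607), mt-Co3 (8607 to 9390), mt-Nd4 (10167 to 11544), mt-Nd5 (11742 to 13565) and mt-Cytb (14145 to 15288). Each is annotated as a single exon. Parts of this genome also exist as copies in nuclear chromosomes, and these copies bear on the values below. All annotated nuclear transcripts of GENCODE were searched, on both strands, for every stretch of 50 bases of each member. No such stretch of mt-Nd1 or mt-Cytb was found, and 1.04% of those of mt-Rnr2, 7.61% of mt-Nd5 and 8.19% of mt-Nd2 were. The share was 51.1% for mt-Co1 and 62.2% for mt-Nd4. For mt-Atp6, mt-Co3 and mt-Co2 it was 99.5%, 99.9% and 100%. The annotated pseudogenes Gm28661, Gm10925 and Gm28437, side by side on the minus strand of chromosome 1, repeat mt-Co2, mt-Atp6 and mt-Co3 without a mismatch over 681, 678 and 783 bases. Unannotated parts of the genome were not searched.

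The last bases of these 3 genes and of their copies are shown because a read from the shared part cannot be placed by sequence. Capitals mark the bases that lie beyond the end of the annotated copy.
mt-Co2, chrM:7667-7696, plus strand: ttcgaaaactgatctgcttcaataattTAA
Gm28661, chr1:24614885-24614911, minus strand: ttcgaaaactgatctgcttcaataatt
mt-Atp6, chrM:8578-8607, plus strand: gtaagcctatatctacatgataatacaTAA
Gm10925, chr1:24613974-24614000, minus strand: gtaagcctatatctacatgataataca
mt-Co3, chrM:9361-9390, plus strand: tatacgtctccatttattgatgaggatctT
Gm28437, chr1:24613189-24613217, minus strand: tatacgtctccatttattgatgaggatct

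The single T that ends mt-Co3 is an unfinished stop codon, 1 base beyond 261 whole codons. The same holds for mt-Nd4 (459 codons and 1 base) and mt-Cytb (381 codons and 1 base), whose ends are shown with that base in capitals.
mt-Nd4, chrM:11515-11544, plus strand: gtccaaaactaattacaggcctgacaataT
mt-Cytb, chrM:15259-15288, plus strand: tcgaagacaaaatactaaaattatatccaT
The mt-Atp8 gene overlaps the start of mt-Atp6 by 43 bases, shown with the start codon of mt-Atp6 and the stop codon of mt-Atp8 in capitals.
Overlap, chrM:7927-7969, plus strand: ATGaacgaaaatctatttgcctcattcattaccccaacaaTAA

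The libraries held between 43198649 and 62853208 reads of listed genes, recovered from the deposited values. Ddx21, the targeted helicase gene, had 11.0 and 12.1 RPKM in control and 6.20 and 6.60 RPKM in knockout (log2 fold change -0.76, SE 0.30, limma adjusted p = 0.158). Knockout replicate 2 stood apart: its median over all tested genes lay 0.50 above the control mean on the log2(RPKM + 1) scale, against 0.12 in knockout replicate 1. Stem cell markers were present, with 10 of 11 in the table and sums of 194 and 243 RPKM in control and 295 and 381 RPKM in knockout. So were the granule genes of myeloid cells, 10 of 10 in the table, with sums of 68932 and 71457 RPKM in control and 48699 and 31358 RPKM in knockout. The 8 bone and stromal markers summed to 447 and 260 RPKM in control and to 6325 and 1587 RPKM in knockout. T and NK lineage markers were 3 of 6 in the table and B lineage markers 4 of 6, and mast cell, erythroid, megakaryocyte and endothelial markers were found too (4 of 4, 8 of 8, 5 of 6 and 2 of 4). By the limma test described further on, 10 of 10 granule genes and 1 of 8 erythroid and 1 of 2 T and NK genes tested were called lower (0.86% of all genes). Called higher were 8 of 8 stromal, 3 of 5 megakaryocyte and 2 of 9 stem cell genes (3.33% of all genes). After the rescaling given there 0 genes were called, though large differences remained. The median log2 fold change went from 3.09 to 2.75 for the stromal genes and from -0.98 to -1.35 for the granule genes. For the megakaryocyte and stem cell genes it went from 0.78 to 0.41 and from 0.68 to 0.33. The part of these other cells in the mitochondrial values was not tested, and in bulk RNA fewer cells of a type and less RNA per cell cannot be told apart.

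Levels of the 10 genes spanned a wide range in every library. In RPKM, which allows for gene length, mt-Rnr2, the large ribosomal RNA, was the highest at 28601 and 23995 in control and 32125 and 21049.7 in knockout. Its highest and lowest values were both in knockout libraries, so the groups overlapped. The cDNA came from an mRNA library kit, per the labels. The most A-rich stretch of 20 bases in mt-Rnr2 holds 16 A, the most among the 15 mitochondrial mRNA and rRNA genes, and is shown in capitals.
mt-Rnr2, chrM:1468-1527, plus strand: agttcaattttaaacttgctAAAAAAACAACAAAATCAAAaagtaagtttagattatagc
Of 426 tested transcripts between 1500 and 1700 bases long, 12.2% hold a stretch of 20 bases with at least 16 A. The smaller rRNA, mt-Rnr1, stood far lower, at 740 and 535 RPKM in control and 745 and 606 RPKM in knockout. Its most A-rich stretch of 20 bases holds nearly as many A, 15. The longest unbroken run of A was 7 bases in mt-Rnr2 and 8 in mt-Nd2, the lowest member. A link between such stretches and the levels was not tested. The ratio of mt-Rnr2 to mt-Rnr1 was 41.8 ± 4.38 in control and 38.9 ± 5.95 in knockout (SD, n = 2).

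Among the mRNAs, mt-Co1, encoding the catalytic subunit of cytochrome c oxidase (complex IV), was the highest. It stood at 8893 and 8677 RPKM in control and 8227 and 6588 RPKM in knockout. Next were mt-Nd1, a complex I subunit, at 6047 and 6087 RPKM in control and 5844 and 4353 RPKM in knockout, and mt-Cytb, cytochrome b of complex III, at 5969 and 5890 RPKM in control and 5712 and 4772 RPKM in knockout. In all 3 genes both knockout libraries lay below both controls, with replicate 2 the lower, while replicate 1 lay close to the controls. The order of mt-Nd1 and mt-Cytb was not resolved, since their ranges overlapped and mt-Nd1 was the higher in 3 of 4 libraries. Together these 3 mRNAs made up between 86.8% and 88.2% of the RPKM of the 9 mRNAs in each library.

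The complex I subunit gene mt-Nd5 stood at 1176 and 1019 RPKM in control and 1044 and 893 RPKM in knockout, with overlapping groups. For mt-Nd4, of the same complex, the values were 731 and 734 RPKM in control and 648 and 649 RPKM in knockout. Its replicates had an SD of 2.25 RPKM in control and 1.12 RPKM in knockout (n = 2), and its groups did not overlap. The remaining genes were lower. The ATP synthase subunit gene mt-Atp6 stood at 431 and 319 RPKM in control and 324 and 237 RPKM in knockout. Its groups overlapped because knockout replicate 1 lay just above control replicate 2.

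The complex IV subunit gene mt-Co3 stood at 277 and 274 RPKM in control and 277 and 244 RPKM in knockout, with knockout replicate 1 at the control level. Its partner mt-Co2 stood at 262 and 237 RPKM in control and 232 and 170.5 RPKM in knockout, without overlap. The lowest member, mt-Nd2 of complex I, stood at 177 and 171 RPKM in control and 169 and 194 RPKM in knockout. Its highest and lowest values were both in knockout libraries. In the order of these levels, without the nuclear copies, the ranges of mt-Atp6 and mt-Co3, mt-Co3 and mt-Co2, and mt-Co2 and mt-Nd2 overlapped as well. Of these, mt-Co3 was above mt-Co2 in 4 of 4 libraries, while the other pairs kept their order in 3 of 4. The other neighbours kept their order without overlap in 4 of 4 libraries. The 3 genes repeated without a mismatch over all but their last bases were thus among the 4 lowest members, and the values of the copies follow further on.

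**Figure D1:**
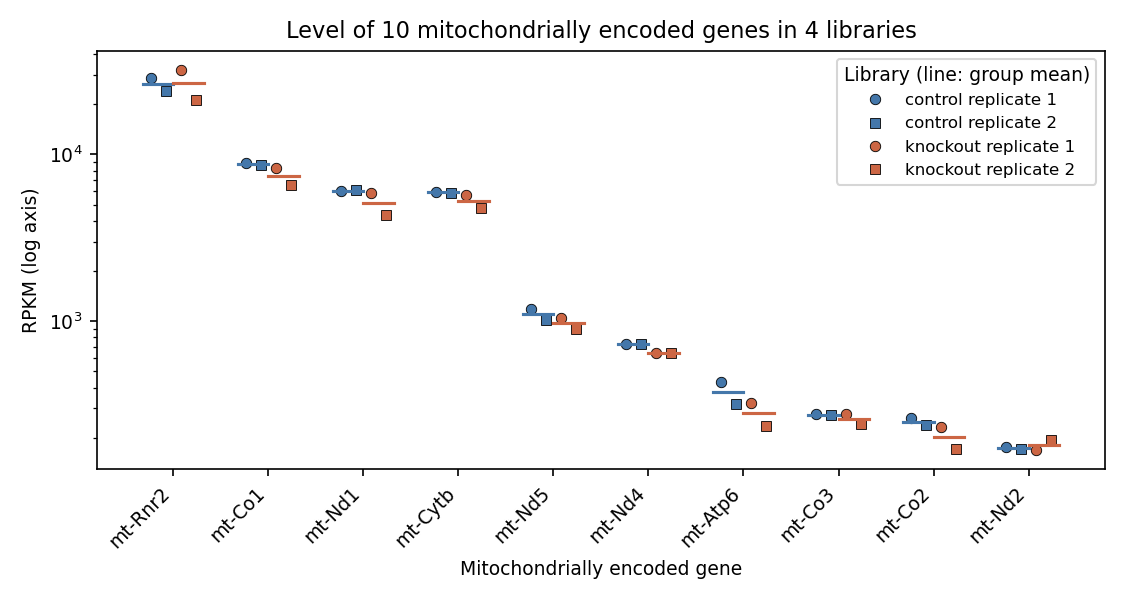
RPKM on a log axis for each of the 10 genes, ordered by their control mean, with 1 point per library and a line at each group mean (n = 2). The genes span from 169 RPKM for mt-Nd2 to 32125 RPKM for mt-Rnr2, and knockout replicate 2 is the lowest library for every gene but mt-Nd2 and mt-Nd4.

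Control and knockout libraries were compared with limma on log2(RPKM + 1) over 11742 genes, to ask what differs between the genotypes. CAG-CreERT2 is carried in the knockout group alone, so loss of Ddx21 and presence of the recombinase cannot be told apart. None of the 10 genes passed an adjusted p of 0.05 (limma, Benjamini-Hochberg), where 0.86% of all tested genes were called lower and 3.33% higher. At an unadjusted p under 0.05 there were 2 lower (2.45% of all genes) and 0 higher (13.8%), and voom, limma's method for read numbers, also called 0 (0.758% of all genes lower and 3.13% higher). In both knockout libraries 5 of 10 were below both controls, namely mt-Co1, mt-Nd1, mt-Cytb, mt-Nd4 and mt-Co2, and 0 of 10 were above. The background was 7.38% of all tested genes below and 55.5% above. It depended strongly on abundance: of 665 other genes with mean levels of at least 100 RPKM, which every member exceeds, 35.5% lay below in both, and of 71 with at least 1000 RPKM 43.7%. Of these abundant genes 8.42% and 18.3% were called lower. The members' share was thus near that of genes of like abundance.

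The smallest p among the members belonged to mt-Atp6, with a log2 fold change of -0.42 (SE 0.16, limma adjusted p = 0.146). It was followed by mt-Co2 with -0.32 (SE 0.17, limma adjusted p = 0.307) and mt-Nd1 with -0.27 (SE 0.18, limma adjusted p = 0.413). The values for mt-Co1, mt-Cytb, mt-Nd5 and mt-Nd4 were -0.25, -0.18, -0.18 and -0.18, with adjusted p-values between 0.437 and 0.527. For mt-Co3, mt-Rnr2 and mt-Nd2 they were -0.084, -0.011 and 0.058. The SE of each gene comes from a trend over all genes and not from its own replicates, so that of mt-Nd4 was 0.16 for all the closeness of its replicates. Leaving out knockout replicate 1 called mt-Nd1, mt-Cytb, mt-Co1, mt-Co2 and mt-Atp6 lower (5 of 10, with 4.48% of all genes called lower and 54.3% higher), and leaving out knockout replicate 2, control replicate 1 or control replicate 2 called 0 members lower (0.111%, 0.0426% and 0.0766% of all genes).

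The median log2 fold change of the 10 genes was -0.18, and that of all genes tested was 0.31. All 10 lay below the median of all genes, and 9 lay below 0 (16.9% of all genes). Among the 71 other genes with mean levels of at least 1000 RPKM, which 5 of the 10 members reach, the median was -0.17, and 95.8% of them were below 0. Among the 665 with at least 100 RPKM, which all 10 members reach, it was -0.092, and 68.4% were below 0. The libraries were also rescaled by a trimmed mean of log ratios, which brings the median of all genes near 0. The median of the members was then -0.56, that of the 71 abundant genes -0.55 and that of the 665 -0.46. All 10 were then below 0 (50.1% of all genes), since mt-Nd2 changed from 0.058 to -0.31. The SE was then between 0.20 for mt-Nd2 and 2.68 for mt-Rnr2, against 0.17 and 0.22 for the same genes before. These SEs also draw on a trend over all genes, and that of mt-Rnr2 was 0.76 with voom on rescaled reads. With the larger SEs of the rescaled fit limma called 0 members and 0% of all genes.

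**Figure D2:**
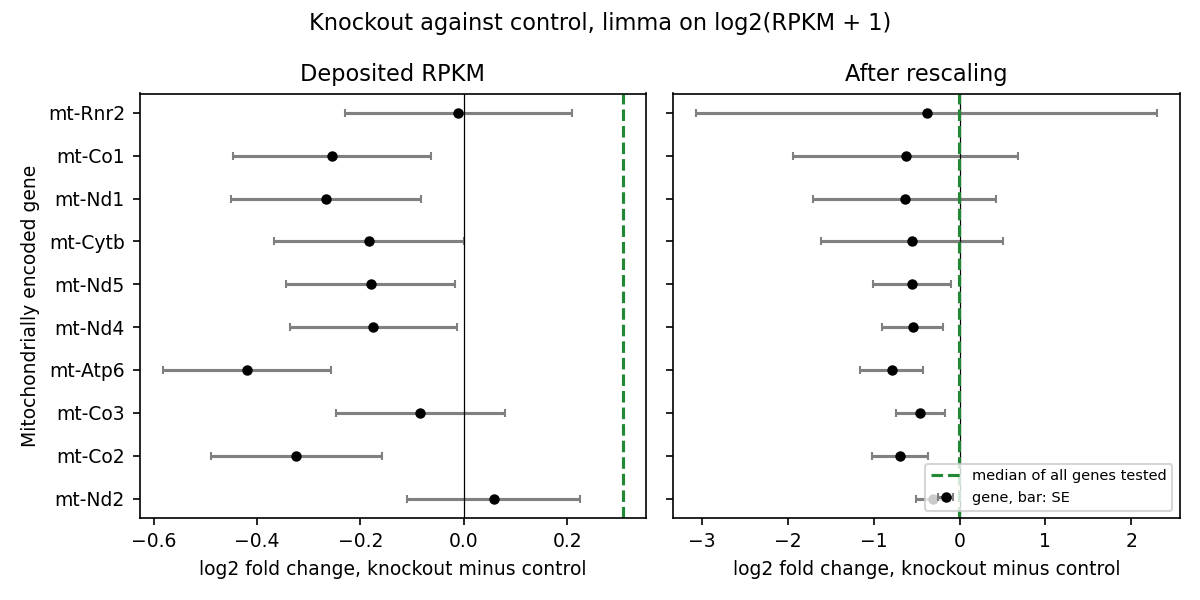
Log2 fold change with SE for each of the 10 genes, on the deposited values (left) and after rescaling (right, wider axis). The dashed line is the median of all genes tested, and on both scales all 10 points lie to its left, with bars that cross it on the right for the most abundant genes.

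As a share of all reads, the 10 genes held 7.56% and 6.76% in control and 7.92% and 5.63% in knockout. This is 7.16% ± 0.570 in control and 6.78% ± 1.62 in knockout (SD, n = 2), a difference smaller than the spread of the knockout libraries. Most of the share in each library is mt-Rnr2, and the 9 mRNAs held 3.04% and 2.96% in control and 2.84% and 2.30% in knockout. The summed RPKM of the 10 genes had a log2 ratio of -0.11 (exact two-sided permutation p = 1). Without knockout replicate 2 this became 0.13, and after the rescaling above it was -0.48 (exact two-sided permutation p = 0.667). Under quantile normalization it turned to 0.072 (exact two-sided permutation p = 0.333). For the 9 mRNAs it was -0.23 with non-overlapping groups (exact two-sided permutation p = 0.333, the smallest that 2 against 2 libraries allow).

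The proportions among the 9 mRNAs were also compared. As a share of their summed RPKM, mt-Co1 took 37.1% in each control library and 36.6% and 36.4% in the knockout libraries. The mean share of mt-Nd1 was 25.6% in control and 25.02% in knockout, and that of mt-Cytb 25.04% in control and 25.9% in knockout. These 2 genes were again too close to be put in order. The share of mt-Nd2 was 0.739% and 0.729% in control and 0.751% and 1.07% in knockout, the last in replicate 2, where 7 of the other 8 mRNAs had their lowest level and mt-Nd4 did not. The ratio of mt-Co1 to mt-Cytb was 1.48 ± 0.0118 in control and 1.41 ± 0.0422 in knockout (SD, n = 2), without overlap.

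The nuclear copies were read out as genes of their own, and some exceeded the mitochondrial gene. Gm28437, whose annotated 783 bases all match mt-Co3 and end 1 base short of it, stood at 600 and 634 RPKM in control and 416 and 214 RPKM in knockout. It alone of the 10 copies was called lower (0.86% of all genes), with a log2 fold change of -1.05 (SE 0.16, limma adjusted p = 2.51e-08), while mt-Co3 itself was at -0.084. After rescaling it had -1.42 and was not called (limma adjusted p = 0.273). Gm10925, the copy of mt-Atp6, stood at 651 and 621 RPKM in control and 550 and 386 RPKM in knockout (log2 fold change -0.46, limma adjusted p = 0.0847). Gm28661, the copy of mt-Co2, stood at 299 and 266 RPKM in control and 248 and 189 RPKM in knockout (log2 fold change -0.38, limma adjusted p = 0.221). In each of these 3 copies both knockout libraries lay below both controls, as in 6 of the 10 copies tested (7.38% of all genes and 35.5% of those with at least 100 RPKM). Among the 6, Gm28438, Gm28439 and Gm10221 had control means of 17.9, 41.4 and 67.9 RPKM, so the share at 100 RPKM does not apply to them.

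The handling of reads with several matches is not given in the sources used here, so these values were also added to those of the genes they copy. The sum for mt-Co3 came to 876 and 907 RPKM in control and 692 and 457 RPKM in knockout. With the copies added to the members, mt-Co3 was called lower (log2 fold change -0.66, SE 0.16, limma adjusted p = 0.00270), the 1 of 10 members called there, beside 0.869% of all genes called lower. Its adjusted p over all alternatives ran from 0.00270 to 0.994. For mt-Atp6 it came to 1079 and 937 RPKM in control and 871 and 622 RPKM in knockout (log2 fold change -0.45, limma adjusted p = 0.104). For mt-Co2 it came to 561 and 503 RPKM in control and 480 and 359 RPKM in knockout (log2 fold change -0.35, limma adjusted p = 0.252). With its own copy mt-Nd4 came to 758 and 758 RPKM in control and 670 and 667 RPKM in knockout. The sums of mt-Atp6 and mt-Co3 exceeded it in every library but knockout replicate 2. The order given above, with mt-Nd4 over mt-Atp6, thus held only without the copies. With the copies 7 of 10 members had non-overlapping groups, all lower in knockout, as mt-Atp6 and mt-Co3 joined the 5 named above, beside 7.38% of all genes, 35.5% of those with at least 100 RPKM and 43.7% of those with at least 1000 RPKM. Whether mt-Co3 passed the test thus depended on whether the value of its copy was counted with it, and the cause was not tested.

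**Figure D3:**
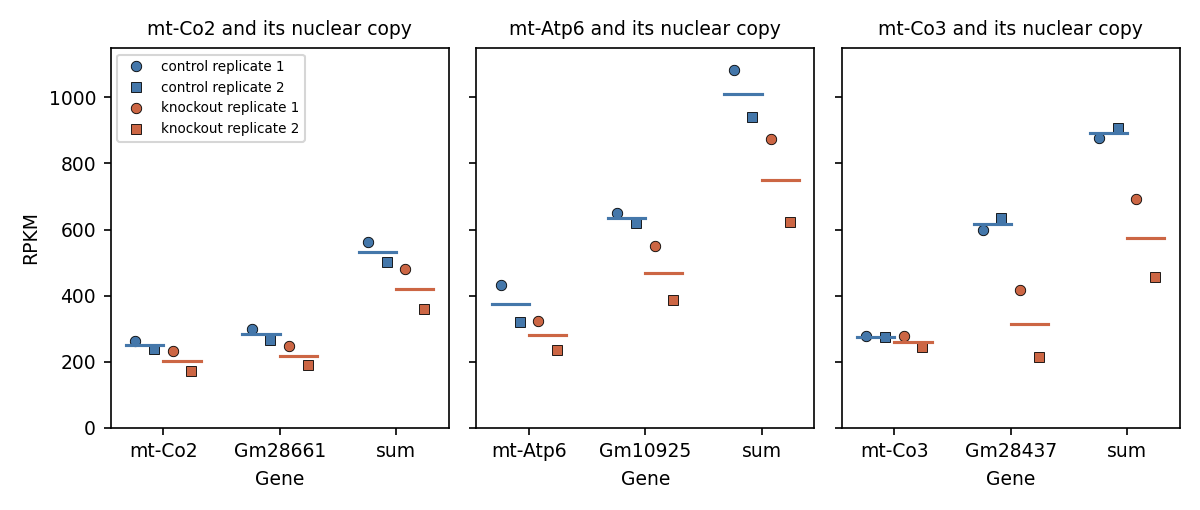
RPKM of mt-Co2, mt-Atp6 and mt-Co3, of the pseudogene on chromosome 1 that repeats each, and of their sum, with 1 point per library and a line at each group mean (n = 2). For mt-Co3 the knockout libraries are level with the controls or slightly below, for its copy Gm28437 they are at 416 and 214 RPKM against 600 and 634.

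Of the 37 genes annotated on the mitochondrial chromosome, 22 were in the table. Of the 5 other mRNA and rRNA genes 0 were called (limma), 1 was lower at an unadjusted p under 0.05 (2.45% of all genes), and their median was -0.21. The short mt-Atp8, which shares its RNA with mt-Atp6, stood at 338 and 353 RPKM in control and 278 and 254 RPKM in knockout (log2 fold change -0.38, limma adjusted p = 0.221). The complex I genes mt-Nd3 and mt-Nd4l had -0.21 and -0.31, and mt-Rnr1 had 0.095. The gene mt-Nd6 is the only mRNA on the minus strand. It stood at 221 and 195 RPKM in control and 204 and 231 RPKM in knockout (log2 fold change 0.064), with overlapping groups. After rescaling mt-Rnr1 and mt-Nd6 turned to -0.28 and -0.31, and none of the 5 was called (limma). The strand used in counting is not given in the sources used here, so reads of mt-Nd6 and of RNA from the opposite strand cannot be told apart.

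Of 22 mitochondrial tRNA genes 7 were in the table and 6 were tested. Of these, mt-Ts1 was called lower, beside 0.86% of all genes (log2 fold change -1.33, SE 0.29, limma adjusted p = 4.52e-04), though not after rescaling (limma adjusted p = 0.145). It rests on 16 and 10 reads in control and on 3 and 1 in knockout, in a gene whose end overlaps that of mt-Co1.

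Of the nuclear genes that serve the mitochondrial genome, those of transcription all lay above the median of all genes. These 10 genes were low, with sums of 49.4 and 46.9 RPKM in control, and fold changes varied with abundance as given above. Whether the list medians here and below follow abundance was not tested. Of 10 genes of mitochondrial transcription 0 passed the test (limma, 3.33% of all genes called higher), with a median of 0.38. At an unadjusted p under 0.05 there were 2 higher (limma, 13.8% of all genes). In 9 both knockout libraries lay above both controls, where 55.5% of all genes did. The largest value was that of Tefm, the elongation factor of mitochondrial transcription, at 10.8 and 8.67 RPKM in control and 14.5 and 18.7 RPKM in knockout (log2 fold change 0.70, SE 0.27, limma adjusted p = 0.135). Mterf2 had 0.60 (limma adjusted p = 0.303). After rescaling the median was 0.12, with Tefm at 0.36.

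Of 30 tested genes of mitochondrial RNA processing and decay 0 were called (limma, 3.33% of all genes called higher), with a median of 0.33. At an unadjusted p under 0.05 there were 2 higher (limma, 13.8% of all genes). The smallest p-values were those of the rRNA methyltransferase genes Mrm1 (0.58, limma adjusted p = 0.306) and Nsun4 (0.66, limma adjusted p = 0.306). Of 11 genes of mitochondrial DNA replication 0 were called (1 higher unadjusted, beside 13.8% of all genes), with a median of 0.40. Mgme1, an exonuclease, was at 0.53 (limma adjusted p = 0.290). Of 13 translation factor genes and 8 regulators of mitochondrial biogenesis 0 were called in each list (0 also unadjusted, where 13.8% of all genes were higher), with medians of 0.34 and 0.29. The leading genes there were Mrrf, a ribosome recycling factor (0.50), and Gabpb1, a subunit of a transcription factor of respiratory genes (0.51). After rescaling the medians of the last 4 lists lay between -0.0021 and 0.13.

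The nuclear subunits of the complexes that hold the members' products lay between. In all, 72 were tested and 0 were called in either direction (limma, with 0 also at an unadjusted p under 0.05). Of all genes 3.33% were called higher and 0.86% lower, and 13.8% and 2.45% were so at an unadjusted p under 0.05 (limma). For complex I the median of 36 genes was 0.12, in a range from -0.14 to 0.28, the latter for Ndufs1, a core iron-sulfur subunit. For complexes III, IV and V the medians of 9, 12 and 15 genes were -0.074, -0.092 and -0.10. The 665 genes other than members with at least 100 RPKM had a median of -0.092. The lowest value of each list was that of Uqcrc1 of complex III (-0.17), Cox6b1 of complex IV (-0.19) and Atp5b, the catalytic subunit of complex V (-0.23). The highest values of these lists were 0.13, 0.048 and 0.099, with Uqcrh of complex III at 0.12. Both knockout libraries were below both controls for 3 genes of complex I, 3 of complex III, 6 of complex IV and 7 of complex V (7.38% of all genes and 35.5% of those with at least 100 RPKM). Some subunits lie under 100 RPKM, such as Ndufs1 and Cox5a with control means of 31.8 and 74.2 RPKM, so that share does not apply to them. Both knockout libraries were above both controls for 19, 1, 0 and 1 genes of these complexes (55.5% of all genes). Complex II, which has no mitochondrially encoded subunit, had a median of 0.091 over 4 genes, including Sdhb at 0.17. After rescaling the medians of complexes I to V were -0.24, -0.28, -0.45, -0.46 and -0.48, with the sign of the complex I and II medians turned. Differences between these lists and the members were not tested.

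**Figure D4:**
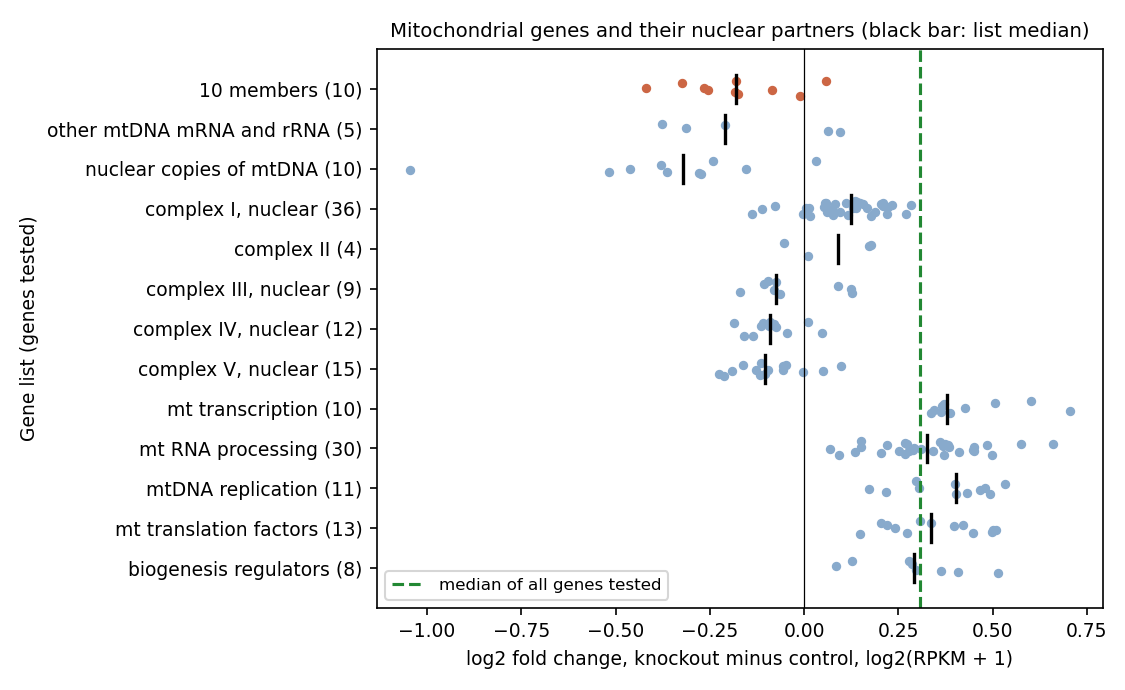
Log2 fold change on the log2(RPKM + 1) scale for every tested gene of 13 lists, 1 point per gene, with a black bar at each list's median and a dashed line at the median of all genes (0.31). The 10 members and the copies lie left of that line, the nuclear subunits of complexes III to V near 0, and the genes of mitochondrial transcription to its right. The lists are not matched for abundance.

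The genes whose pattern over the 4 libraries was most like that of the members were sought among 4572 other genes with mean levels of at least 10 RPKM. The measure was the Euclidean distance between each gene's centred log2(RPKM + 1) values and the members' median values, which were 0.13 and 0.059 in control and 0.035 and -0.25 in knockout. The 5 nearest were Rpl14-ps1, Eef1a1, Gm8172, Rpl17-ps3 and Gm4366, at distances from 0.0290 to 0.0342. Eef1a1, which encodes the elongation factor of cytosolic translation, stood at 6286 and 5908 RPKM in control and 5963 and 4870 RPKM in knockout. The other 4 are annotated as processed pseudogenes, whose reads may belong to their parent genes. With 4 libraries many genes lie close to any such pattern.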

How the data were processed

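The deposited table gives RPKM per gene and library (reads scaled by gene length and library size), a unit identified from the values. Per the submitters' processing notes the genome build was mm10. Aligner, counter, strand and the treatment of reads with several matches: not given in the sources used here. A deposited 0.001 stands for no reads. The table holds no gene whose highest library is under 1.01 RPKM, so genes low in all 4 libraries were not tested.

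Value times the length of the longest GENCODE M21 transcript was a whole number of reads, within 0.1, for between 99.39% and 99.42% of the values of each library, which gave read numbers. Symbols matched 12381 of 12390 IDs. Genes with mean levels of at least 1 RPKM (11742) were tested on log2(RPKM + 1) with limma (version 3.58.1, R 4.3.3, mean-variance trend), with genotype as the sole term, 2 residual degrees of freedom and a Benjamini-Hochberg adjusted p under 0.05. Fold changes are on that scale, which understates those of low genes. The script was tested on simulated data. Single summed values were compared by exact permutation.

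The members and the gene lists were chosen with earlier results of these data known. Named genes are the 10 members, other mitochondrial genes and copies in the table, the 2 smallest p-values per nuclear list (some left out for brevity), Ddx21 and the 5 nearest patterns. Lists of cell type markers covered granule, erythroid, megakaryocyte, B, T and NK, stromal, endothelial, mast cell and stem cell genes. Alternatives covered scaling, filter, pseudocount, test, block, nuclear copies and each library left out.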

Additional observations from a re-analysis of the deposited data

How the results depend on the processing

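Of 150 fold changes (10 members under 15 alternatives), 134 stayed on their side of the threshold without a change of sign, among them mt-Nd1 and mt-Rnr2 at exactly 0 under quantile normalization, 6 passed it and 10 changed sign. Rescaling by a trimmed mean of log ratios and quantile normalization each left 0 genes called higher and 0 lower (limma; 907 and 922 at an unadjusted p under 0.05 after rescaling, 869 and 879 after quantile normalization). The members' median was -0.56 and 0.0066, and voom on rescaled reads, an alternative chosen after seeing the data as were the added copies and the sum without mt-Rnr2, gave 21 and 7 genes and a median of -0.53. Under rescaling mt-Nd2 turned to -0.31 (voom -0.30), and under quantile normalization, which fixes the values of the top ranks, mt-Nd4 turned to 0.013, mt-Nd5 to 0.054, mt-Cytb to 0.20 and mt-Co1 to 0.29. A minimum mean of 5 RPKM, with fewer genes tested, gave 235 genes higher, and limma without the trend 52 lower. With the copies added 1 member was called lower. Leaving out 1 library in turn gave from 27 to 6381 genes higher, from 5 to 526 lower, from 0 to 5 members lower, a members' median from -0.31 to -0.061 and a summed log2 ratio from -0.35 to 0.13. The group left with 1 library is then assumed to vary like the other. Over these 4 fits mt-Nd2 ran from -0.043 to 0.16, mt-Co3 from -0.18 to 0.0073 and mt-Rnr2 from -0.32 to 0.29, each changing sign without knockout replicate 2 and mt-Rnr2 also without control replicate 1 (0.12). The replicate block, in which the number is only a shared label (correlation of the deviations 0.067 for equal numbers), gave 175 genes higher and 64 lower with 1 residual degree of freedom and called 0 members. The causes of these shifts were not tested. The summed log2 ratio was 0.072 under quantile normalization and -0.48 after rescaling, and it was not recomputed for other filters, pseudocounts, tests or the block.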
